A study of Mus musculus with 4 samples.

Results

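Enzymes that attach ubiquitin to proteins or take it off again were followed in testes of hypogonadal mice, across 4 arrays. Members were all probe sets whose single gene symbol in the array's annotation begins with Ube2, Ube3 or Uch, or with Usp or Rnf followed by a digit; certain symbols of the Usp family were left out and are not reported here. This gave 111 of 12422 probe sets, for 81 genes: 29 probe sets of E2 conjugating enzymes (21 genes), 1 of a Ube3 ligase, 42 of RING finger (RNF) proteins (31 genes), 37 of ubiquitin-specific proteases (USP, 26 genes) and 2 of ubiquitin C-terminal hydrolases (UCH). Membership was set by symbol alone, but the rule itself was chosen with earlier results of these data known. Hypogonadal (hpg) mice carry a deletion in the gene for gonadotropin-releasing hormone and make little testosterone of their own, so all groups share that deficit. All mice were first given testosterone propionate, an injectable testosterone ester, and it was then stopped. The T+O group (1 array) had 2 weeks of this first treatment and then the withdrawal. The T+T group (3 arrays) is titled as treated again: the description of replicate 1 gives 4 hours of renewed testosterone propionate and no length for the first treatment, whereas those of replicates 2 and 3 give 2 weeks and end at the withdrawal, so that their arm rests on the title. The age of the mice, the length of the withdrawal and whether an array held 1 mouse or a pool are not given in the labels, and p-values therefore measure only the spread between these arrays, which may be technical.

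Ubiquitin is a small protein that is activated by an E1 enzyme, carried by an E2 conjugating enzyme and joined to its substrate with the help of an E3 ligase. RING ligases bring the loaded E2 to the substrate, while HECT ligases such as Ube3a take the ubiquitin over first. Deubiquitinating enzymes of the USP and UCH families cut it off again. Some chains send a protein to the proteasome and others change its activity or place. In the testis the system is known for marking histones in spermatids before protamines replace them, for the turnover of proteins at meiotic divisions and for the steady loss of cytoplasm as sperm form. Several of its enzymes also bind the androgen receptor.

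Values are signal intensities scaled so that the 4 arrays shared a trimmed mean. Differences are on the scale of log2(signal + 9.78), T+T minus T+O, where the added constant is the 25th percentile of all scaled values; this understates the fold of dim probe sets. A probe set was tested where its mean over the 4 arrays was above a scaled signal of 22.7. That left 86 member probe sets of 69 genes. The other 25 were dim, with a median mean signal of 8.37, and 12 member genes had no tested probe set. Ube2e3 (23.3) and Usp12 (23.6) lay just inside this limit and Usp42 (20.6) and Rnf225 (20.03) just outside. The number of arrays, and with it the lone T+O array, limits the precision. An exact permutation of 1 array against 3 cannot give a p below 0.25, so the test used was limma's, which takes the spread of T+O from the T+T arrays.

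The arrays carried the marker genes of a testis. All 13 spermatid marker genes found on the array were above the limit, with a summed scaled signal of 42070 in T+O against 40540 to 52430 in T+T, and 5 of 7 Leydig cell genes, with 383 in T+O against 321 to 422 in T+T. The summed signal of 7 spermatogonial probe sets was 1295 in T+O against 861 to 1231 in T+T, and that of 9 macrophage probe sets was 485 in T+O against 555 to 607 in T+T. For 7 peritubular myoid probe sets it was 1441 in T+O against 1491 to 1823 in T+T, for 12 Sertoli cell probe sets 3529 against 3520 to 4001 and for 6 meiotic probe sets 2759 against 2667 to 2864. Within the meiotic list Sycp1, of the synaptonemal complex, had 390 in T+O against 13.5, 38.5 and 36.2 in T+T (difference -3.43 ± 0.42; limma, adjusted p = 0.106). Others of that list lay the other way: Ccna1 had 256 in T+O against 423, 425 and 316 in T+T, and Hspa2 1533 against 1752, 1956 and 1838. The list held 3 positive and 3 negative differences. No probe set in the marker lists was listed at 0. In whole tissue, fewer cells of a type and less RNA per cell cannot be told apart. The T+O array also stood apart in the ratio of 3′ to 5′ signal of control genes: for Gapdh it was 1.20 against 0.886, 0.837 and 0.809 on T+T replicates 1, 2 and 3, and for pyruvate carboxylase 3.76 against 1.93, 2.00 and 1.76. For Actb it was 1.53 against 1.66, 1.40 and 1.17. The part of the marker levels and of these ratios in the differences below was not tested.

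None of the 86 member probe sets differed between T+T and T+O in the test over all 7453 probe sets (limma, Benjamini-Hochberg adjusted p of at least 0.126). Over all probe sets 2 passed, or 0.0268%. With no adjustment, limma's p was under 0.05 for 6 members on the higher and 8 on the lower side, where the shares of all probe sets were 3.57% and 4.23%. A looser description counts probe sets for which each T+T array was 1.5-fold or more above T+O, or each as far below it, on the scale of signal + 9.78. By it 4 members were higher (Rnf10, Usp22, Usp19 and Ube2c) and 5 lower (both probe sets of Usp34, and 1 each of Usp15, Rnf138 and Uchl5), against 1.84% and 2.23% of all probe sets. Usp22 and Ube2c passed the signal limit only through the T+T arrays, so a difference was built into their being tested. On scaled signal with nothing added, a setting chosen after the data were seen, 1 probe set each of Ube2z and Ube2k would join the higher members and Ube3a the lower, for 6 and 6, against 3.03% and 2.83% of all probe sets. The adjusted call rests on which arrays are used: without T+T replicate 1, 6 member probe sets passed in limma (Rnf10, Usp19, Ube2k, Rnf138 and both of Usp34), where 63 of all probe sets (0.845%) did. Without replicate 2 the member that passed was Rnf10, among 12 of all probe sets (0.161%), and without replicate 3 no member did, and 1 of all (0.0134%). The T+O array is alone in each of these fits. Without T+T replicate 1, the T+T arrays left are those whose descriptions end at the withdrawal. That fit therefore holds no array described as treated again.

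**Figure D1:**
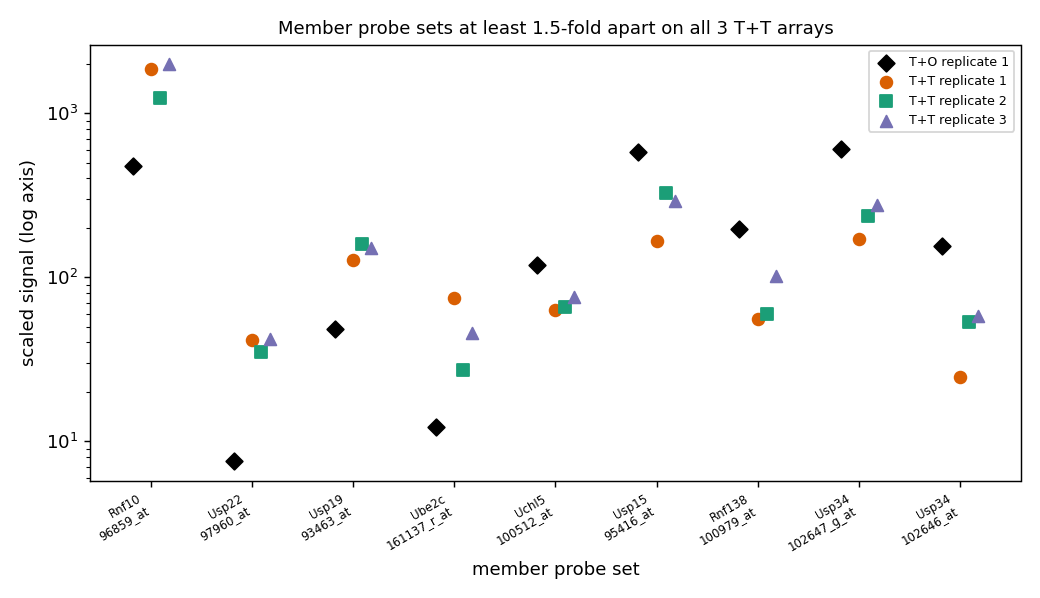
Scaled signal (log axis) of the 9 member probe sets whose T+T arrays all lay 1.5-fold or more above T+O, or all as far below it, when 9.78 was added to each signal, with 1 symbol per array. The T+O diamond lies below the T+T symbols for Rnf10, Usp22, Usp19 and Ube2c and above them for Uchl5, Usp15, Rnf138 and both Usp34 probe sets; these probe sets were chosen by that separation.

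Promoters of members from both sides are shown so that the letters upstream of genes with opposite differences can be compared. Windows were also found for Ube2c (T+T higher) and Usp15 (T+T lower on 1 of its probe sets) and are not printed. RefSeq windows of assembly GRCm38.p6, from 250 bases before to 50 bases after the transcript start, were matched by symbol for 61 of the 81 member genes, some with more than 1 start and so 77 windows in all. The windows below run 5′ to 3′ along the gene. Capitals mark matches, on either strand, to the androgen receptor half-site TGTTCT, the GC box GGGCGG, the CCAAT box CCAAT, the cyclic AMP response element half-site TGACGT and the ETS site CCGGAAG.
Rnf10 (T+T higher), chr5:115272846-115273145, minus strand: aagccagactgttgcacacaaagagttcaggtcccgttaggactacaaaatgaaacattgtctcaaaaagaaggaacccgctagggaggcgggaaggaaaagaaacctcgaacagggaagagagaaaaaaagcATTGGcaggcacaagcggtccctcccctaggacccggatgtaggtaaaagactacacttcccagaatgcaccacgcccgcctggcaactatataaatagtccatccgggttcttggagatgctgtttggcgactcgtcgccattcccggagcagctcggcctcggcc
Usp19 (T+T higher on 1 of its probe sets), chr9:108490426-108490725, plus strand: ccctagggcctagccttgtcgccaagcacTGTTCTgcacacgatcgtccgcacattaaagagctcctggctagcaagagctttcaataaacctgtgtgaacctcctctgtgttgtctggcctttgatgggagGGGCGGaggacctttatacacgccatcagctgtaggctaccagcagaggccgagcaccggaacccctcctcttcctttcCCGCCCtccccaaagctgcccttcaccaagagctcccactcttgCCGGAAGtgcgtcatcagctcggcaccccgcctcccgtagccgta
Usp34 (T+T lower), chr11:23306645-23306944, plus strand: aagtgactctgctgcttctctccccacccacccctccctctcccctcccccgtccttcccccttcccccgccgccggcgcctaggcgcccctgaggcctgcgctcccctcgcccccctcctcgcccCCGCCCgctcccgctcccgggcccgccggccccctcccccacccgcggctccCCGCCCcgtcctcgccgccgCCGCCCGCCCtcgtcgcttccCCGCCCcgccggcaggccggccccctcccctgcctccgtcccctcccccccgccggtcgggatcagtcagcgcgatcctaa
Uchl5 (T+T lower), chr1:143777028-143777327, plus strand: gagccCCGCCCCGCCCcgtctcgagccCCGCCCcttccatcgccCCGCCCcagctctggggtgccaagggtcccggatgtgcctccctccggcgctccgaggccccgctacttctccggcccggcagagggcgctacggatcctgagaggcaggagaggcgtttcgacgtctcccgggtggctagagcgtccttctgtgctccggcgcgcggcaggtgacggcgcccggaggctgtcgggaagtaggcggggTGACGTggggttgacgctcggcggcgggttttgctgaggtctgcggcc

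The half-site for the androgen receptor was in the Usp19 window, starting 221 bases before the transcript start, and these letters were not in the other 3 windows. It was in 8 of 77 member windows (10.4%), those of Rnf6, Rnf20, Rnf123, Rnf225, Ube2d3, Ube2h, Ube2s and Usp19, and in 19.0% of 32851 windows of all genes; the palindrome of 2 half-sites with 3 bases between them was in 0 member windows and 3 of all. The GC box was in 74.0% of member windows and 35.7% of all, with 5 matches in Usp34, 4 in Uchl5 and 2 in Usp19; neighbouring matches overlap by 1 base in Uchl5 and by 2 in Usp34. Rnf10 held none and had 1 CCAAT box, a motif in 31.2% of member windows and 37.4% of all. The ETS site was in 24.7% against 8.86% and the cyclic AMP half-site in 15.6% against 7.51%, the latter from base 3 of the Uchl5 transcript. The G and C share was 52.7% for Rnf10, 59.0% for Usp19, 73.3% for Uchl5 and 80.3% for Usp34. Of the windows not printed, Ube2c held 6 CCAAT matches and 1 GC box, with a G and C share of 62%. Usp15 held 3 GC boxes, with a share of 73.7%. A match of letters is a description of the window and shows no binding.

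Of the 22 tested probe sets of E2 conjugating enzymes (17 genes), 16 had a negative difference, as did 3448 of all 7453 probe sets. For these E2 probe sets, all 3 T+T arrays were below T+O for 12 and above it for 4, where 23.7% and 29.5% of all probe sets lay so. For the RNF group the counts were 9 below and 5 above of 34, and for the USP group 8 below and 5 above of 27. The median difference was -0.22 for E2 enzymes, 0.03 for RNF proteins and -0.06 for USP enzymes, beside 0.03 for all probe sets, and only the RNF median changed sign under another scaling (-0.17 with the deposited values unscaled, where the median of all probe sets was -0.16). The T+T arrays gave E2 medians of -0.15, -0.22 and -0.19 on replicates 1, 2 and 3. No set was tested, and these counts were made with 1 T+O array that all comparisons share. Without scaling, 6.94% of all probe sets lay above and 20.3% below, and 8 of 21 E2 probe sets lay below and 3 above.

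**Figure D2:**
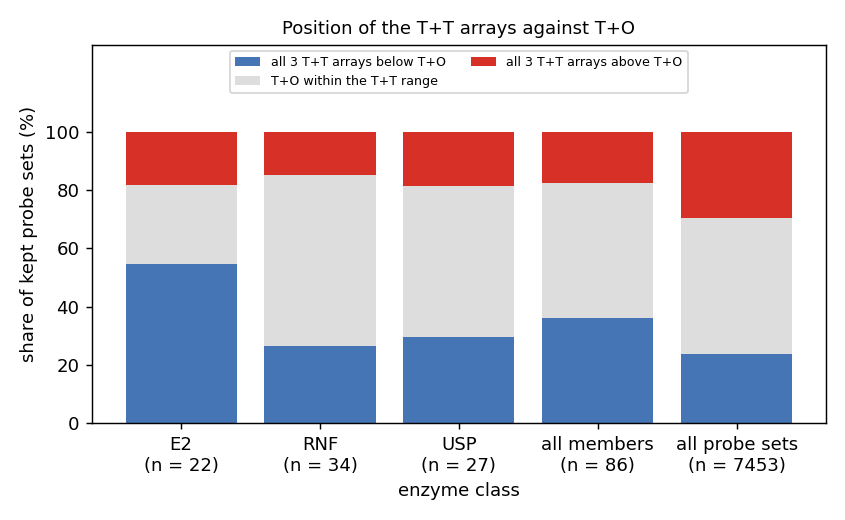
Share of tested probe sets (%) with all 3 T+T arrays below T+O, with T+O inside the T+T range and with all 3 T+T arrays above T+O, for the E2, RNF and USP classes, all members and all probe sets (n under each bar). The lower share is 54.5% for E2 enzymes, 26.5% for RNF proteins, 29.6% for USP enzymes, 36.0% for all members and 23.7% for all probe sets.

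Among the E2 enzymes that serve many ligases, Ube2d3 had a scaled signal of 57.7 in T+O against 25.9, 34.4 and 40.3 on T+T replicates 1, 2 and 3, so that all T+T arrays were lower. Its difference was -0.65 ± 0.32 (SE; limma, adjusted p = 0.705). Its other probe set gave 37.6 in T+O and 30.2 ± 14.1 (SD, n = 3) in T+T, with replicate 3 above T+O. The suffix of that probe set marks sequence shared within a gene family. Ube2h, the E2 of a multi-subunit ligase that acts in red cell maturation, had 111 in T+O against 68.7, 58.4 and 82.0 in T+T, a difference of -0.62 ± 0.25 (SE; limma, adjusted p = 0.621). The groups did not overlap on this probe set, but on the other Ube2h probe set they did, with 71.4 in T+O against 70.4 ± 19.9 in T+T. Ube2n and its partner Ube2v1, which lacks a catalytic site and helps Ube2n to build signalling chains, both lay lower in T+T. Ube2n had 689 in T+O against 540 ± 44.8 in T+T (difference -0.35 ± 0.18). Ube2v1 had 294 in T+O against 276, 230 and 195 in T+T (difference -0.33 ± 0.23). The related Ube2v2 was too dim to test, with 18.02 in T+O against 3.10 ± 3.42 in T+T on 1 probe set and 7.68 against 7.99 ± 3.10, with overlap, on the other. Ube2f, which carries the ubiquitin-like protein NEDD8 to cullins, had 74.9 in T+O against 57.4 ± 7.76 in T+T.

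The enzymes of mitosis did not share a direction. Ube2c, which starts ubiquitin chains for the anaphase-promoting complex, had 12.2 in T+O against 74.5, 27.2 and 45.5 on T+T replicates 1, 2 and 3. All 3 T+T arrays were higher and far apart from each other, and the T+O value lay under the signal limit for testing. The difference was 1.34 ± 0.46 (SE; limma, adjusted p = 0.506), on a probe set whose suffix marks relaxed probe selection. Ube2s, which lengthens the chains that Ube2c starts, had 1226 in T+O against 1191, 1092 and 899 in T+T, a difference of -0.22 ± 0.20. The protease Usp1, which acts on DNA repair factors in dividing cells, had 626 in T+O against 369, 424 and 498 in T+T, all lower (difference -0.54 ± 0.21; limma, adjusted p = 0.590).

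Ube2k and Ube2z lay higher in T+T on 1 probe set, and each had another probe set that did not show it. Ube2k, an E2 that can build chains on its own, had 25.1 in T+O against 39.0, 100.8 and 84.6 in T+T on 1 probe set, a difference of 1.20 ± 0.44 (limma, adjusted p = 0.565). The other had 83.2 in T+O against 86.6 ± 18.4 in T+T, with T+O inside the T+T range. Ube2z, which is loaded by the E1 enzyme Uba6, had 56.3 against 86.2, 93.0 and 103 on 1 probe set (difference 0.65 ± 0.23; limma, adjusted p = 0.507). On the other it had 131 against 123, 96.2 and 113 (difference -0.23 ± 0.22). Both Ube2z probe sets separated T+O from T+T, in opposite directions.

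**Figure D3:**
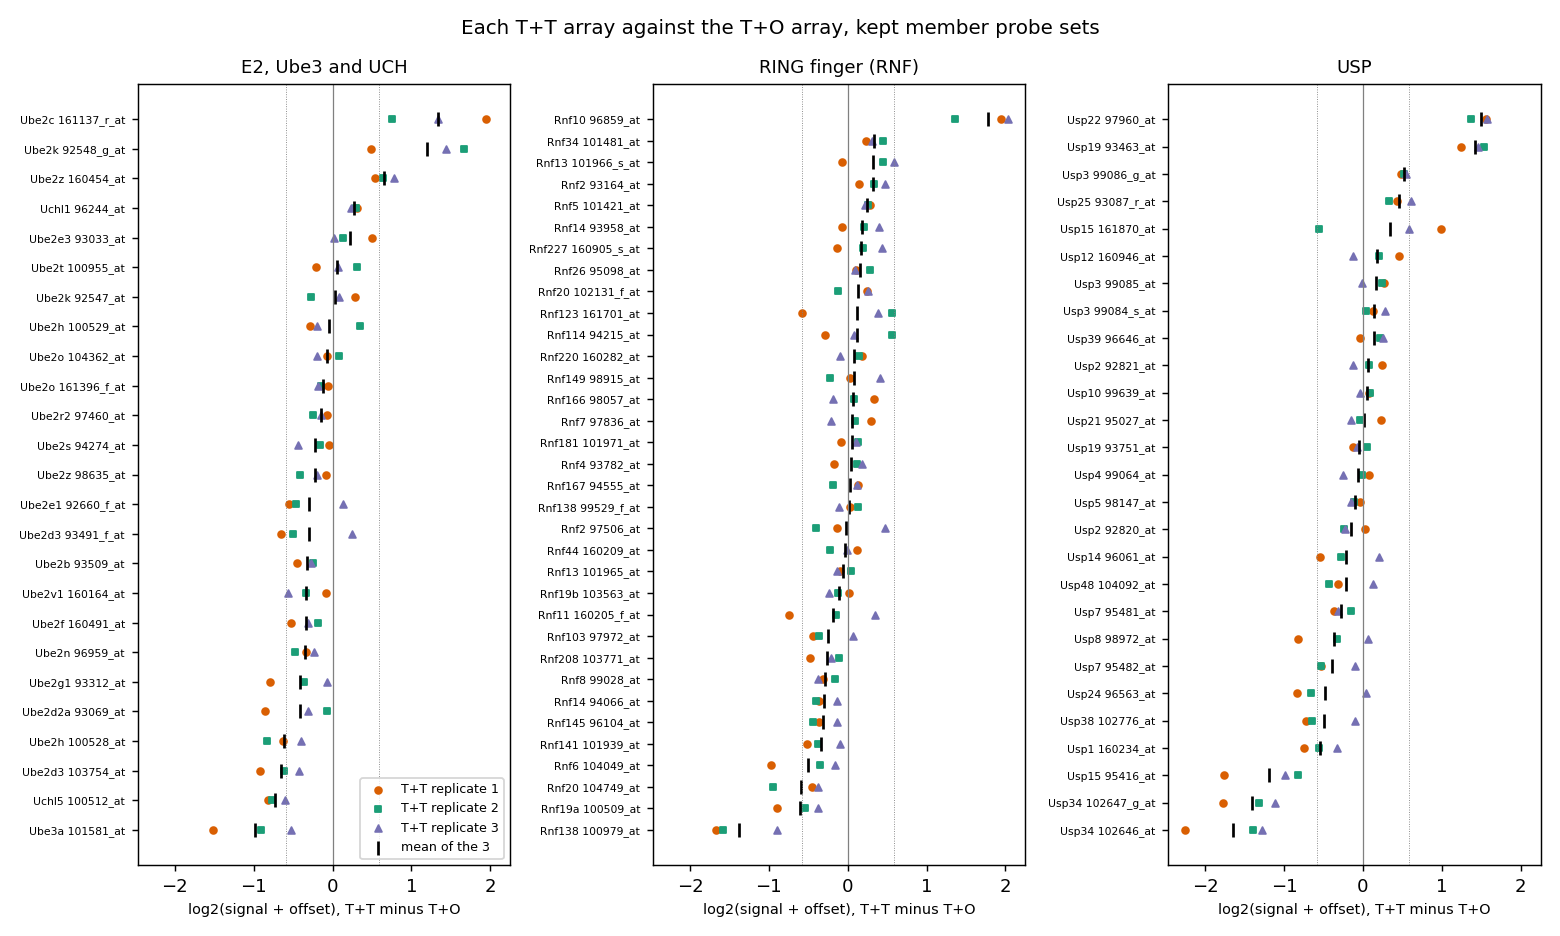
Difference of each T+T array from the T+O array, on the log2(signal + offset) scale, for the 86 tested member probe sets, sorted within enzyme class; the black bar is the mean of the 3 and the dotted lines mark 1.5-fold. Most members lie between the dotted lines, and replicate 1 lies farthest from T+O for several of the lowest, such as Usp34, Usp15 and Ube3a.

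Most members varied little. On 50 of the 86 probe sets (58.1%) all 4 arrays lay within 1.5-fold of each other, as they did for 61.8% of all probe sets. The median standard deviation among the T+T arrays was 0.21 on the log2 scale for members and 0.20 for all probe sets. Across the 86 probe sets the arrays correlated with Pearson's r from 0.896 (T+O with T+T replicate 1) to 0.975 (T+T replicates 2 and 3); this is across probe sets, which are not independent replicates. T+O correlated with T+T replicates 2 and 3 at 0.929 and 0.935, and the T+T arrays with each other at 0.961 or above. For members the T+O array was thus the farthest from the rest. Over all tested probe sets the gap was smaller. There T+O correlated with T+T replicates 1, 2 and 3 at 0.943, 0.951 and 0.956, and the T+T arrays with each other at 0.952 to 0.968.

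Rnf10, a RING ligase known for marking proteins of the small ribosomal subunit, showed the largest difference of any tested member. Its scaled signal was 475 in T+O against 1851, 1231 and 1981 on T+T replicates 1, 2 and 3. All 3 T+T arrays were well above T+O. The log2 difference was 1.78 ± 0.27 (SE; limma, adjusted p = 0.126). With 1 T+T array left out, whether it passed depended on which array that was, as given above. The difference was 1.70 without T+T replicate 1, the only T+T array described as treated again, and 1.99 without replicate 2. It was 0.81 when replicates 2 and 3 were read as withdrawn, as their descriptions end. Only 1 probe set measures this gene, so no other probe set bears on it.

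The other RING finger members lay nearer to T+O than Rnf10. Rnf138, a ligase that acts at DNA double-strand breaks, had 197 in T+O against 55.4, 59.4 and 101.1 in T+T on 1 probe set, all lower, with a difference of -1.38 ± 0.33 (SE; limma, adjusted p = 0.263). Without T+T replicate 1, the only T+T array described as treated again, the difference was -1.24. The other Rnf138 probe set, whose suffix marks sequence shared within a gene family, had 999 in T+O against 1020, 1091 and 924 in T+T, with T+O inside the T+T range. Whether Rnf138 differed therefore depends on the probe set. Rnf19a, a ligase that joins RING and HECT-like steps, had 697 in T+O against 369, 477 and 536 in T+T. All T+T arrays were lower, with a difference of -0.60 ± 0.23 (limma, adjusted p = 0.581). On the other side, Rnf34, a ligase for caspases, had 125.3 in T+O against 149, 175 and 157 in T+T, a difference of 0.33 ± 0.20 (limma, adjusted p = 0.761). Rnf5, a ligase of the endoplasmic reticulum membrane, had the tightest T+T values of the RING group, 137, 134 and 131, all above 111 in T+O (difference 0.25 ± 0.20). Rnf2, a Polycomb ligase for histone H2A, differed by 0.32 ± 0.24 and -0.02 ± 0.33 on its tested probe sets, the latter of which became 0.0066 with quantile normalization. Rnf20, a ligase for histone H2B, had 36.8 against 21.6 ± 6.36 on 1 probe set, which passed the signal limit only through T+O. It had 136 against 150.1 ± 22.5 on the other, whose suffix marks shared family sequence as for Rnf138. Rnf13, a ligase of endosomal membranes, had 24.7 against 23.3 ± 2.16 and 42.8 against 57.2 ± 15.1.

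Members known to bind or modify the androgen receptor gave no call. Of 6 such genes 5 were on the array by name, with 6 tested probe sets: T+T lay below T+O on 3 and overlapped it on 3, where 23.7% of all probe sets lay below and 29.5% above. Ube3a, a HECT ligase and receptor coactivator, had 48.6 in T+O against 10.6, 21.4 and 30.7 on T+T replicates 1, 2 and 3. All T+T arrays were lower, but replicate 1 lay far from replicate 3. The T+T mean of 20.9 was under the signal limit, which Ube3a passed only through T+O. Its difference was -0.98 ± 0.46 (SE; limma, adjusted p = 0.679). Rnf6, a ligase for the receptor itself, had 44.2 in T+O against 17.6, 32.6 and 38.3 in T+T, again lowest on replicate 1 (difference -0.50 ± 0.40). Rnf14, a receptor coactivator, had 365 in T+O against 281, 274 and 330 on 1 probe set, without overlap, and 82.4 against 78.2, 96.2 and 112 on the other, with overlap. Rnf4, a coregulator that recognises SUMO chains, had 257 in T+O against 265 ± 35.2 in T+T. Usp10, a deubiquitinating cofactor of the receptor, had 87.98 in T+O against 93.4, 94.7 and 85.9 in T+T. A p above the threshold does not show that Rnf4 or Usp10 were equal in the groups. The sign of the small Rnf4 and Usp10 differences turned without scaling (-0.16 and -0.14).

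Members with a known role in sperm formation were tested on 8 probe sets, of which 4 had T+T below T+O, 1 above and 3 overlapping, beside the same 23.7% below and 29.5% above over all probe sets. They include those of Rnf19a, Rnf138 and Uchl1. Ube2b, an E2 for histones without which male mice are infertile, had 196 in T+O against 141, 164 and 161 in T+T, all lower (difference -0.32 ± 0.20; limma, adjusted p = 0.766). Its near copy Ube2a was too dim to test, at 15.2 against 12.3 ± 5.03. Rnf8, a ligase that works with these E2 enzymes on spermatid histones, had 81.6 in T+O against 63.7, 71.7 and 60.9 in T+T, also all lower (difference -0.28 ± 0.24). Usp2, a protease with testis isoforms and a role in the circadian clock, was measured by 2 probe sets. It had 939 against 851 ± 95.1 on 1 probe set and 1219 against 1284 ± 161 on the other, with overlap on both.

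Deubiquitinating enzymes of the USP family held the lowest member. Usp34, a very large protease that acts in Wnt signalling, had 155 in T+O against 24.6, 52.9 and 58.0 on T+T replicates 1, 2 and 3 on 1 probe set. On the other it had 607 in T+O against 171, 237 and 275 in T+T. The probe sets gave the same order of arrays, with T+O highest and T+T replicate 1 lowest. Differences were -1.64 ± 0.40 and -1.40 ± 0.26 (SE; limma, adjusted p = 0.279 and 0.205). Without T+T replicate 1, the only T+T array described as treated again, the differences were -1.33 and -1.22. Both probe sets share an accession in the annotation, so they are not independent measures of the gene.

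Usp15, a protease of TGF-beta signalling, had 583 in T+O against 165, 324 and 289 in T+T on 1 probe set, a difference of -1.19 ± 0.34 (limma, adjusted p = 0.401). All T+T arrays were lower there. Its other probe set was dim and wide, with 21.95 in T+O against 53.5, 11.8 and 37.9 in T+T. Usp7, the protease of the p53 regulator Mdm2, lay lower in T+T on both probe sets, at 297 against 227 ± 42.5 and 87.5 against 70.7 ± 6.33, without overlap on either.

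On the other side, Usp22, which removes ubiquitin from histones in the SAGA coactivator complex, had 7.59 in T+O against 41.5, 35.2 and 41.9 in T+T. The T+T arrays were close together and all above T+O, whose value lay under the signal limit for testing. The difference was 1.503 ± 0.34 (limma, adjusted p = 0.258), and its size depends on the added constant. Usp19, a protease of protein quality control, had 48.3 in T+O against 128, 159 and 150.4 in T+T on 1 probe set (difference 1.42 ± 0.22, limma, adjusted p = 0.141). The difference was 1.501 without T+T replicate 1, the only T+T array described as treated again. The other Usp19 probe set had 457 in T+O against 417, 474 and 433 in T+T, with T+O inside the T+T range (difference -0.05 ± 0.18). Usp25 had 143 in T+O against 197, 182 and 224 in T+T, all higher (difference 0.46 ± 0.20; limma, adjusted p = 0.672). The Usp25 probe set carries the suffix for relaxed probe selection, as that of Ube2c does. Usp3, a histone protease, had differences of 0.15, 0.17 and 0.52 on its 3 probe sets. T+O lay inside the T+T range on the probe set at 0.17 and below all T+T arrays on the others. The smallest 2 differences turned to -0.06 and -0.03 without scaling.

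Proteasome-bound proteases trim chains before a protein is broken down. Uchl5, of the UCH family, had 119 in T+O against 63.2, 65.7 and 75.3 in T+T. The T+T arrays were close together and all lower, with a difference of -0.73 ± 0.23 (SE; limma, adjusted p = 0.458). Usp14, its partner at the proteasome, had 56.8 in T+O against 35.9, 44.98 and 66.8 in T+T, with T+O inside the T+T range. Uchl1, an abundant ubiquitin hydrolase of neurons that also marks spermatogonia, had 288.5 in T+O against 359, 357 and 340.0 in T+T, all higher by a small step (difference 0.28 ± 0.17; limma, adjusted p = 0.769). The summed signal of the spermatogonial list, which holds Uchl1, lay the other way, as given above. Much of that sum was Ddx4, with 635 in T+O against 283, 597 and 588 in T+T. The lowest difference of the list was on 1 probe set of Dazl, at -0.96 ± 0.28 (SE). That probe set had 166 in T+O against 63.5, 79.2 and 103 in T+T. The other Dazl probe set had T+O inside the T+T range. Stra8 was also lower on all T+T arrays, with 77.2 in T+O against 36.9, 58.5 and 54.5 in T+T. Kit, of the same list, was higher on all T+T arrays, as Uchl1 was. The list held 3 positive and 4 negative differences, so its genes did not share a direction. The cycle of ISG15, an antiviral relative of ubiquitin, could not be tested: its E2 Ube2l6 had 13.1 in T+O against 36.8, 9.16 and 10.8 in T+T, and its protease Usp18 had 2.74 in T+O against 5.13 ± 4.33 in T+T. Only 1 of 10 probe sets of interferon-induced genes was above the limit.

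Several genes had more than 1 tested probe set, and these often differed in sign. Of 16 such genes, 7 had probe sets of the same sign and 9 of opposite signs. Among the 9, Ube2z alone had both probe sets without overlap in opposite directions. The others had at least 1 probe set with T+O inside the T+T range, in some cases near 0. The same count over all genes was not made. The widest gaps were in Usp15 (-1.19 and 0.34), Usp19 (1.42 and -0.05), Rnf138 (-1.38 and 0.01) and Ube2k (1.20 and 0.03). The probe sets of Ube2k share an accession, as those of Usp34 do. Usp34 was the gene whose probe sets were farthest from 0 with the same sign. Of the 9 probe sets that lay 1.5-fold apart, 3 (those of Usp15, Usp19 and Rnf138) thus had a partner that did not. For these genes the difference and its direction are uncertain. Rnf10, Usp22, Ube2c and Uchl5 had no other tested probe set. Transcript ends and isoforms that the probe sets read are not given in the files used here.

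**Figure D4:**
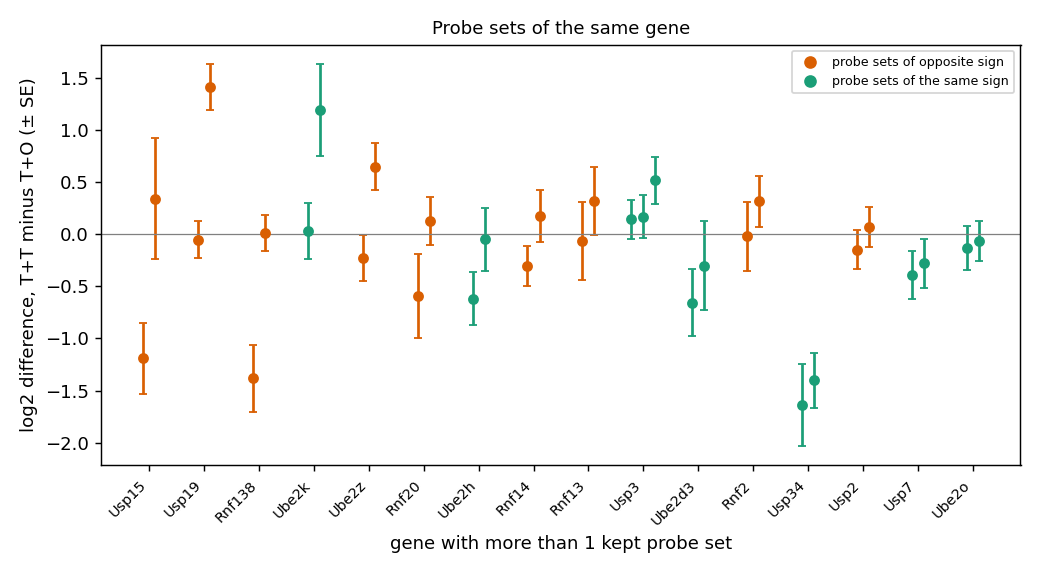
Log2 difference, T+T minus T+O, with its standard error, for each tested probe set of the 16 member genes with more than 1. Orange marks the 9 genes with probe sets of opposite sign and green the 7 with the same sign; Usp34 has both far below 0, while Usp19, Rnf138 and Ube2k each have 1 far from 0 and 1 near it.

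Only T+T replicate 1 and the T+O array have titles that their descriptions bear out. In that T+T array 5 tested members were 1.5-fold or more above the T+O array and 18 as far below it, where 6.87% and 11.1% of all probe sets were. The lower members came from each class: 5 of E2 enzymes, 4 of RNF proteins, 7 of USP enzymes, Ube3a and Uchl5. Differences ran from -2.26 (Usp34) to 1.94 (Ube2c and Rnf10), with a median of -0.08 beside 0.04 for all probe sets. This is 1 array against 1 and has no replicate check. When T+T replicates 2 and 3 were read as withdrawn, as their descriptions end, T+T replicate 1 was set against T+O and these 2 arrays together. No member passed in limma (lowest adjusted p = 0.919). Ube2c alone was then at least 1.5-fold above all 3 others, and Ube3a, Rnf6, Rnf11 and 1 probe set each of Usp34 and Usp15 at least 1.5-fold below, where 0.671% of all probe sets lay so above and 2.13% below. Rnf10 was at 0.81 on the log2 scale under this reading and Usp19 at 0.24, since T+T replicates 2 and 3 lie with replicate 1 for both.

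The rest of the ubiquitin system was counted in the same way. The list of ubiquitin genes themselves had no singly named probe set. Over 7 other lists (E1 enzymes, cullins and adaptors, the anaphase-promoting complex, HECT ligases, other RING ligases, other deubiquitinating enzymes and ubiquitin-like modifiers), 83 genes were on the array and 92 probe sets of 71 genes were tested. None passed in limma; with no adjustment limma's p was under 0.05 for 2 higher and 7 lower ones, beside 3.57% and 4.23% of all probe sets. On all 3 T+T arrays 0 probe sets were 1.5-fold or more above T+O and 6 as far below: 1 each of Trip12, Birc2, Marchf7, Mdm4, Zranb1 and Senp6. Over all probe sets these shares were 1.84% and 2.23%. All T+T arrays were below T+O for 32 and above for 17, where 23.7% and 29.5% of all probe sets lay so, and the median difference was -0.10 beside 0.03 for all probe sets. The HECT ligase Trip12 had 150.4 in T+O against 65.6, 69.7 and 59.2 in T+T (difference -1.11 ± 0.23; limma, adjusted p = 0.258). Birc2, Mdm4 and Zranb1 each had another tested probe set. That of Birc2 lay the other way, with 26.1 in T+O against 39.7, 31.7 and 48.1 in T+T. That of Mdm4 had T+O inside the T+T range, and that of Zranb1 was lower by less (-0.29). Senp6, with a T+T mean of 15.2, passed the signal limit only through T+O. The 5 tested genes of the E1 list were Uba7, Atg7, Uba3, Nae1 and Sae1. They serve ubiquitin-like proteins, so no E1 of ubiquitin itself was tested. Their differences lay between -0.40 and -0.03, and only for Sae1 were all T+T arrays below T+O. The cullin Cul3 had 947 in T+O against 385, 591 and 653 in T+T (difference -0.83 ± 0.29; limma, adjusted p = 0.506).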

How the data were processed

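Total RNA of hpg mouse testis was measured on 4 one-colour oligonucleotide arrays (1 T+O, 3 T+T, grouped by title). The authors deposited a linear signal intensity for each probe set; per the labels, no software or scaling step is given in the sources used here. Array medians as deposited ran from 25.4 to 48.3, so each array was multiplied by a factor (0.779 to 1.33) that gave a common mean after trimming 2% at each end. The 66 control probe sets were left out, which left 12422. The 25th percentile of scaled values, 9.78, was added before log2, and probe sets with a mean above the 40th percentile of means (22.7) were kept, 7453 in all. T+T minus T+O was fitted with limma 3.58.1 in R 4.3.3 (lmFit, eBayes with intensity trend, two-sided, 2 residual degrees of freedom), with Benjamini-Hochberg adjustment over all 7453 probe sets and a threshold of 0.05. This assumes that T+O, with its lone array, has the spread of T+T. The code was tested on simulated data.

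Gene symbols came from the array annotation: 10833 probe sets have 1 symbol, 396 several and 1193 none, and none was named from the latter kinds. Updating symbols through a RefSeq gene table (10817 matched) changed no member. Named members are, per enzyme class, those past the threshold or 1.5-fold apart on all 3 T+T arrays, the 2 highest, 2 lowest and 2 brightest, a fixed list, and genes with probe sets of opposite sign; Usp3, Usp7, Usp25, Rnf5, Rnf11 and the other probe sets of Ube2k, Ube2h and Ube2d3, and the marker gene Sycp1, were added after their values were seen. Ccna1, Hspa2, Kit, Ddx4, Dazl and Stra8, from the marker lists, were also added with their values known. The members, lists and rules were chosen with earlier results of these data known. The fixed list held Rnf10 as a gene named in an earlier account.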

Additional observations from a re-analysis of the deposited data

How the results depend on the processing

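No paired analysis was possible because T+O is 1 array whose title carries no replicate number. No member passed the adjusted threshold under any setting with all 4 arrays, and with a T+T array left out it was 0 to 6, while 1 to 63 of all 7453 probe sets passed, against 2 with all arrays. Of the 6 higher and 8 lower members at an unadjusted p under 0.05 in limma, 3 and 4 were left without scaling, 1 was higher when the arm of T+T replicates 2 and 3 was taken as withdrawn (the withdrawn reading), 3 were higher with 1 probe set per gene, and 5 to 15 were lower with a T+T array left out. Unadjusted p-values under 0.05 were not counted over all probe sets under these settings. The 4 members at least 1.5-fold higher became 2 with the filter at the 60th percentile and 1 under the withdrawn reading. Over all probe sets the 137 higher became 62 and 50. The 5 lower became 3 with 1 probe set per gene, and 5 to 10 when 1 array was left out, since fewer arrays had to agree; over all probe sets the 166 lower became 200 to 422. The 15 members above T+O became 7 without scaling and 20 to 24 with 1 array left out. Over all probe sets the share above went from 29.5% to 6.94% without scaling and to 36.3% to 40% with 1 array left out. In the label-matched pair the 5 higher became 3 with 1 probe set per gene. They became 8 without a filter and 2 when it was set at the 60th percentile. The 18 lower became 34 without scaling. There the median difference of all probe sets over the 3 T+T arrays was -0.16, against 0.03 with scaling. Counts for this pair over all probe sets were not made under these settings.

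The median difference of the members (-0.06) was -0.27 without scaling, -0.13 under the withdrawn reading and -0.099 to -0.055 with 1 array left out. For E2 enzymes (-0.22) it was -0.43 without scaling, -0.16 under the withdrawn reading, -0.30 with 1 probe set per gene, -0.18 with the offset at the 50th percentile or the filter at the 60th, and -0.21 to -0.18 with 1 array left out. Without scaling the RNF, USP and UCH medians were -0.17, -0.29 and -0.42, and under the withdrawn reading -0.15, 0.025 and -0.12; the UCH median was -0.16 with the offset at the 50th percentile.

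Of 53 named member probe sets, 33 kept their sign under every setting run. Under the withdrawn reading the sign turned for Rnf34 (-0.016), Rnf13 (-0.42), Ube2v1 (0.21), Ube2k (-0.55), Usp2 (0.19), Rnf2 (-0.13), Rnf4 (-0.28), Rnf14 (-0.27), Ube2s (0.16) and Ube2z (0.12). Without scaling it turned for Rnf20 (-0.068), Usp2 (-0.14), Rnf4 (-0.16), Rnf14 (-0.0071), Rnf138 (-0.195), Usp10 (-0.14), Usp3 (-0.058 and -0.029) and Ube2k (-0.15), with median scaling for Rnf138 (-0.014) and with quantile normalization for Rnf2 (0.0066). With 1 array left out it turned on probe sets near 0 of Usp2 (-0.019 to 0.16), Rnf2 (-0.27 to 0.17), Ube2k (-0.095 to 0.18), Ube2h (-0.24 to 0.072), Rnf11 (-0.45 to 0.10), Rnf4 (-0.031 to 0.15) and Rnf138 (-0.041 to 0.078). The cause of these changes was not tested.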
